A study of Mus musculus with 12 samples.

Results

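The genes described are 10 acute-phase genes of the liver, Saa1, Saa2, Saa3, Saa4, Orm1, Orm2, Lcn2, Hp, Itih4 and Apcs, taken by their symbols from the 16821 genes listed for every mouse. All 10 were found. They had been chosen by the width of their spread across these same mice and by how closely they rose and fell together, so the spread and the agreement are given as a description, with no test. The comparison of the exercised with the sedentary mice played no part in the choice and was tested.

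The RNA came from perfused livers of 12 adult male C57BL/6J mice, 6 of a sedentary control group (Con) kept without access to a treadmill and 6 of a chronic exercise group (Exe) that ran at moderate intensity on a treadmill for 6 weeks. All mice were 8 weeks old when bought, and the livers were collected within a day of the last run. Each mouse gave 1 library, and the values are FPKM, the fragments of a gene divided by its transcript length and by the size of the library, which are levels per length and can be set side by side between genes. The number of reads is unknown, and the relative depth of the libraries, estimated from 21 genes with very few reads, lay between 0.988 and 1.02. Only genes whose FPKM lay near whole multiples of a smallest step common to all mice were used. That choice favors libraries of like depth, so equal depth is not shown. Of 12 hepatocyte markers, 12 were at 1 FPKM or more in at least 6 mice, with Alb, the albumin gene, at 29517 FPKM or more in every mouse. Because whole liver was measured, fewer cells of a type and less RNA per cell cannot be told apart.

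In the acute-phase response, hepatocytes change the mix of plasma proteins they secrete when cytokines such as interleukin 6 and interleukin 1 reach them, and transcription factors of the C/EBP, STAT3 and NF-kB families carry these signals to the genes. Proteins that increase are called positive acute-phase proteins, and those that decrease, such as albumin, negative ones. In the mouse the serum amyloid A proteins and serum amyloid P are classic positive members, and their plasma levels serve as a readout of inflammation.

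The SAA genes lay next to each other on chromosome 7, in the order Saa3, Saa4, Saa1 and Saa2, with Saal1 before and Hps5 after them among the protein-coding genes. Orm1 and Orm2 lay on chromosome 4 on either side of Orm3, Itih4 lay beside Itih3 on chromosome 14, Apcs beside Crp on chromosome 1, Lcn2 on chromosome 2 and Hp on chromosome 8. Promoters were read from the RefSeq table for GRCm38.p6, which holds 8 of the 10 genes, all but Orm1 and Hp. The reads had been aligned to GRCm39, so these positions were not carried over to the data. The 250 bases before the start of the 4 SAA genes and of Orm2 are shown, because these genes include the widest and one of the narrowest spreads among the members. Capitals mark matches to TTGCNNAA, a core of the C/EBP binding motif, searched on both strands.
Saa1 (chr7:46742981-46743230, minus strand): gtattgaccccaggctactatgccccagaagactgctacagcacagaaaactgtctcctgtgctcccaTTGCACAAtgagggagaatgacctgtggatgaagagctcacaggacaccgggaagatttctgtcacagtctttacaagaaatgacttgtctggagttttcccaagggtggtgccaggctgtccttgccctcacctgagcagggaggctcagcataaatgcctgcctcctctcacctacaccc
Saa2 (chr7:46751583-46751832, plus strand): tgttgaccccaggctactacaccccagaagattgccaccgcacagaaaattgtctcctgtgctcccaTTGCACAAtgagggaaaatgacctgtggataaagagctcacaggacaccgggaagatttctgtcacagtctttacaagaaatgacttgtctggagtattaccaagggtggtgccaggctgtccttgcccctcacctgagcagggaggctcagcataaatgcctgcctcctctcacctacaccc
Saa3 (chr7:46715677-46715926, minus strand): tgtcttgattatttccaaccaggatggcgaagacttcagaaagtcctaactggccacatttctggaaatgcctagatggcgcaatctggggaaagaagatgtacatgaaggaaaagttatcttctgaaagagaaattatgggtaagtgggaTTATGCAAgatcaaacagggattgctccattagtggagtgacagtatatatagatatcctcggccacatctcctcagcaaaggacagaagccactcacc
Saa4 (chr7:46732604-46732853, minus strand): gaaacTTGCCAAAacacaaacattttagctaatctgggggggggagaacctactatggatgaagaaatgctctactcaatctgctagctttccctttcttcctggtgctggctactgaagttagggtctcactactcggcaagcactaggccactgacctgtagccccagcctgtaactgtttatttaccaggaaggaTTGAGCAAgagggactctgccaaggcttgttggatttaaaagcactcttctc
Orm2 (chr4:63362199-63362448, plus strand): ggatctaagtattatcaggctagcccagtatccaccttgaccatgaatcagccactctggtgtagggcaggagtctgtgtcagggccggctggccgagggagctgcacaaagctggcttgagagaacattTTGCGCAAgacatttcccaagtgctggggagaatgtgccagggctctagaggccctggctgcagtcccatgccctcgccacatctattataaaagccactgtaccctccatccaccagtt

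The upstream bases of Saa1 and Saa2 were 94.8% identical (238 identical bases, 249 aligned and 2 gap bases), and both held TTGCACAA, at -182 and -183 from the gene start. Saa3 held TTATGCAA at -99, Saa4 matched at -245 (TTGCCAAA) and at -52 (TTGAGCAA), Orm2 matched at -120 (TTGCGCAA, a palindrome that counts as 1 place), and Lcn2 matched at -216 (TTGCTCAA). The motif was thus found in 6 of 8 member promoters, of which the near-identical Saa1 and Saa2 are not separate cases. It was found in 9.57% of the 32841 promoters in the table. Apcs and Itih4, in which it was not found, held the STAT3 motif TTCNNNGAA instead, Apcs at -244 (TTCTAGGAA) and Itih4 at -51 (TTCCGAGAA), against 7.02% of all promoters. Apcs also held the core CTGGGAA, read on the opposite strand as TTCCCAG, at -129 and -52, with 9.10% of all promoters holding it. None of these matches overlapped another. The NF-kB motif was found in 0 of 8 member promoters and in 7.25% of all. A match describes the letters in this window and is not a measured binding site.

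The serum amyloid A genes had the widest range. Saa1 (NCBI gene ID 20208), which encodes an apolipoprotein that joins high-density lipoprotein during inflammation, ran from 153 FPKM (Con 4) through a median of 4335 FPKM to 9259.8 FPKM (Con 1) in Con mice. In Exe mice it ran from 149 FPKM (Exe 2) through a median of 1015 FPKM to 8994 FPKM (Exe 5). The libraries of Con 4, Con 5, Exe 2 and Exe 4 held 182 FPKM or less, and the ranges of the groups overlapped almost completely.

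Saa2 (20209), the close relative of Saa1 with the same carrier, had the steepest range, from 51.7 FPKM (Con 5) through a median of 2659.99 FPKM to 11371 FPKM (Con 1) in Con mice. The Exe mice ran from 53.1 FPKM (Exe 4) through 637 FPKM to 10832 FPKM (Exe 5). The highest library held 219.98 times the level of the lowest, against 62.3 times for Saa1, and in rank Saa2 went from place 1309 among all genes (Exe 4) to place 9 (Con 1).

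Saa3 (20210), an SAA gene that macrophages and fat tissue also express, was far lower and had its peaks in other mice. It ran from 9.15 FPKM (Con 5) through 52.9 FPKM to 152 FPKM (Con 3) in Con mice. In Exe mice, Exe 5 held 135 FPKM and the other 5 lay between 8.76 and 14.4 FPKM. Con 2, second to Con 1 among the Con mice for Saa1 and Saa2, held 27.8 FPKM of Saa3, less than Con 1, Con 3 and Con 6.

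Saa4 (20211) encodes the SAA protein that is made constitutively. It lay between 152 FPKM (Con 5) and 421 FPKM (Con 1) in Con mice and between 127 FPKM (Exe 4) and 309 FPKM (Exe 5) in Exe mice, with medians of 194 and 189.6 FPKM. Its highest level was 3.33 times its lowest. Saa4 was above Saa2 in 4 of 12 mice and above Saa1 in Con 4 (163 against 153 FPKM), while in Exe 5 Saa1 was 29.1 times as high as Saa4.

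**Figure D1:**
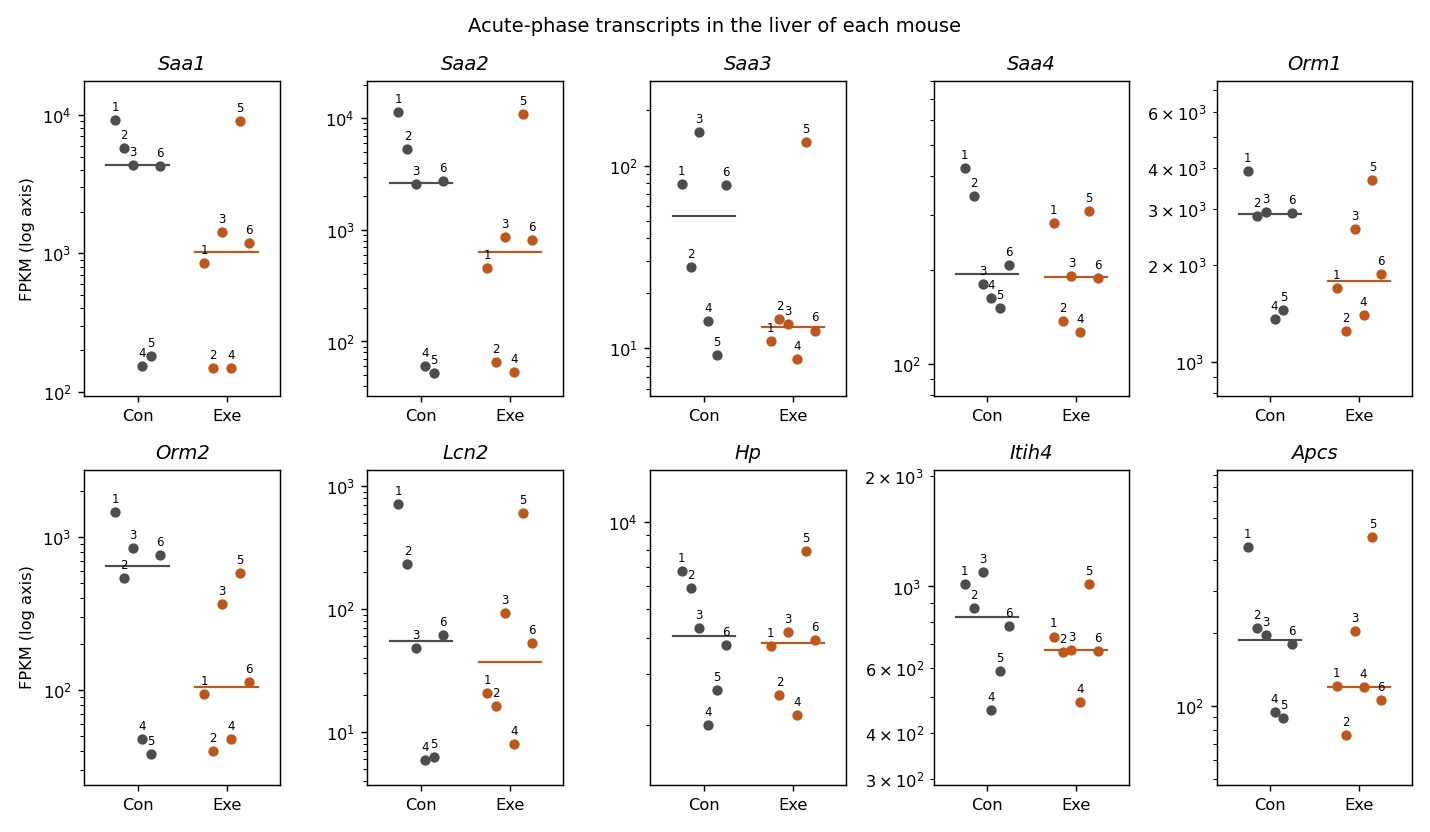
FPKM of each of the 10 genes (logarithmic axis, own scale per panel) in 6 Con and 6 Exe mice; each point is a mouse with its number above it and the line is the group median. Con 1 and Exe 5 sit at or near the top in most panels, Con 4, Con 5, Exe 2 and Exe 4 near the bottom, and the groups overlap in every panel.

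Orm1 and Orm2 encode orosomucoid (alpha-1-acid glycoprotein), a plasma lipocalin that binds drugs and other small molecules. Orm1 (18405) was abundant in every mouse, from 1363 FPKM (Con 4) through 2879 FPKM to 3938 FPKM (Con 1) in Con mice and from 1250.3 FPKM (Exe 2) through 1786 FPKM to 3686 FPKM (Exe 5) in Exe mice. Orm2 (18406) ran from 38.6 FPKM (Con 5) through 649 FPKM to 1440.04 FPKM (Con 1) in Con mice and from 40.2 FPKM (Exe 2) through 104 FPKM to 577 FPKM (Exe 5) in Exe mice. The same 4 mice, Con 4, Con 5, Exe 2 and Exe 4, were lowest for both genes, but the highest level was 3.15 times the lowest for Orm1 and 37.3 times for Orm2.

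Lcn2 (16819) encodes lipocalin 2, which binds bacterial siderophores and so withholds iron. It went from 5.93 FPKM (Con 4) through 54.8 FPKM to 719 FPKM (Con 1) in Con mice and from 7.94 FPKM (Exe 4) through 36.9 FPKM to 609 FPKM (Exe 5) in Exe mice. After these 2 libraries came Con 2 (234 FPKM) and Exe 3 (92.5 FPKM), and the other 8 mice held 61.2 FPKM or less. Con 3, with the highest Saa3 of all mice, held 48.5 FPKM of Lcn2.

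Hp (15439) encodes haptoglobin, which binds free hemoglobin, and was the most abundant member in 8 of the 12 mice. It ran from 2002 FPKM (Con 4) through 4046 FPKM to 6772 FPKM (Con 1) in Con mice and from 2168 FPKM (Exe 4) through 3829.8 FPKM to 7922 FPKM (Exe 5) in Exe mice. Hp was above Orm1 in 12 of 12 mice. In Con 1 and Exe 5, Saa2 and Saa1 were both above Hp, and in Con 3 and Con 6 Saa1 alone was.

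Itih4 (16427), a heavy chain of the inter-alpha-trypsin inhibitor family, had the narrowest range. It lay between 463 FPKM (Con 4) and 1091 FPKM (Con 3) in Con mice, with a median of 828 FPKM, and between 486 FPKM (Exe 4) and 1017 FPKM (Exe 5) in Exe mice, with a median of 671 FPKM. Apcs (20219), the gene of serum amyloid P, a pentraxin that binds amyloid fibrils, lay between 89.6 FPKM (Con 5) and 455 FPKM (Con 1) in Con mice and between 75.8 FPKM (Exe 2) and 497 FPKM (Exe 5) in Exe mice, with medians of 188 and 120.3 FPKM. For Apcs, Con 1 and Exe 5 stood clear of the other 10 mice, the next of which held 211 FPKM (Con 2).

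Seen by mouse, Con 1 and Exe 5 were the 2 highest libraries for 6 of the 10 genes, and Con 4, Con 5, Exe 2 and Exe 4 were the 4 lowest for 8 of the 10. Con 1 was highest for 6 genes, Con 3 for Saa3 and Itih4, and Exe 5 for Hp and Apcs. The 10 genes together made up between 0.553% (Con 4) and 4.52% (Exe 5) of the summed FPKM of a mouse, with 4.39% in Con 1. Saa1 and Saa2 supplied 4.33% of the members' sum in Exe 2 and 58.2% of it in Con 1. Against Alb in the same library, Saa1 stood at 0.309% in Exe 2 and at 31.4% in Con 1.

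The libraries between these ends differed in which members were high. Con 3 and Con 6 held nearly the same Saa1 (4369 and 4301 FPKM), Saa2 (2576 and 2744 FPKM) and Orm1 (2932 and 2915 FPKM). They parted in Saa3 (152 and 78.0 FPKM) and Itih4 (1091 and 779.5 FPKM). Exe 3 held less Saa1 than both (1437 FPKM) but more Lcn2 (92.5 FPKM, against 48.5 and 61.2 FPKM) and more Apcs (205 FPKM, against 196 and 180.1 FPKM), with Saa3 at 13.6 FPKM. Exe 1 held 849.6 FPKM of Saa1 and yet 282 FPKM of Saa4, more than any mouse but Con 1, Con 2 and Exe 5. The order of the middle libraries thus depended on the member.

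**Figure D2:**
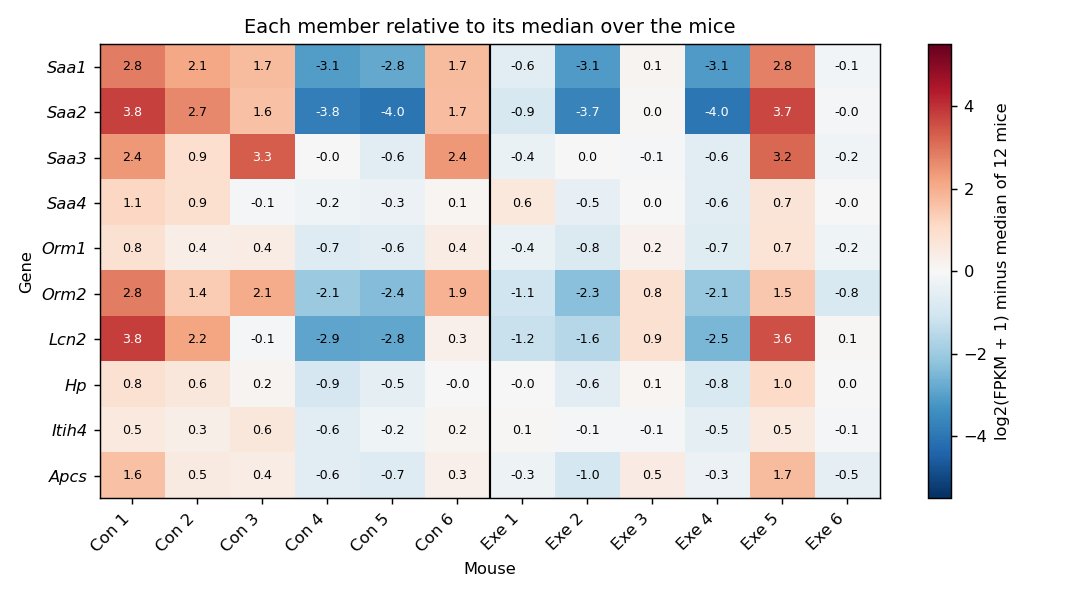
log2(FPKM + 1) of each gene minus its own median over the 12 mice; columns are mice, rows are genes, and red is above and blue below the median. Saa2 reaches 3.8 above its median in Con 1 and 4.0 below it in Con 5 and Exe 4, while Itih4 lies between 0.60 below (Con 4) and 0.64 above its median (Con 3).

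On the log2(FPKM + 1) scale, the SD over the 12 mice was 3.01 for Saa2, 2.40 for Saa1, 2.33 for Lcn2 and 1.95 for Orm2, which were the 4 largest of the 10241 genes tested, those at 1 FPKM or more in 6 or more mice. Saa3 (SD 1.51) was in place 10. The places from 5 to 9 were taken by Mt2, Moxd1, Hamp, Mt1 and Cyp4a14. Of the other members, Apcs had an SD of 0.873 (place 48), Hp 0.632, Orm1 0.595, Saa4 0.55 and Itih4 0.403 (place 414). An SD over 1 was seen in 5 of 10 members and in 31 of all genes tested (0.303%), and the median SD was 1.19 over the members and 0.141 over all genes tested. These are the values that chose the members, so nothing is read from their size. By the same choice there is no threshold, and the widest gene outside the members was Mt2, a metallothionein (SD 1.91). Within groups, the SD was larger in Con than in Exe mice for 9 of 10 members, the exception being Apcs (0.858 and 0.955). For Hp the difference was small (0.670 and 0.654). The members move together and the share over all genes is not given, so nothing is read from this count.

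The members rose and fell together over the 12 mice, again as a description. Pearson's r of the log2 values ran over the 45 pairs from 0.51 (Saa3 and Saa4) through a median of 0.865 to 0.996 (Saa1 and Saa2), and Spearman's rho from 0.52 through 0.867 to 0.972 (Saa1 and Orm1). Within groups the median r was 0.901 in Con mice and 0.867 in Exe mice. Without Con 1 and Exe 5, the 2 mice farthest from the median, r ran from 0.235 (Saa3 and Saa4) to 0.996 (Saa1 and Saa2), with a median of 0.817. The 12 values of a gene share their libraries with those of every other gene, and an FPKM is a share of a library, so that genes are not measured independently of each other.

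An index, the mean over the 10 genes of the log2 values scaled to mean 0 and SD 1, ordered the mice from Con 1 (1.41), Exe 5 (1.34), Con 2 (0.77), Con 3 (0.65), Con 6 (0.46) and Exe 3 (0.09) to Exe 6 and Exe 1 (both -0.26), Exe 2 (-0.97), Con 5 (-1.01), Con 4 (-1.10) and Exe 4 (-1.12). Both groups were found at both ends. Against the index of the other 9 members, r was 0.985 for Saa2, 0.98 for Saa1, 0.975 for Orm1, 0.948 for Hp, 0.938 for Orm2 and Lcn2, 0.913 for Apcs and 0.892 for Itih4. It was lowest for Saa4 (0.804) and Saa3 (0.799), and without Con 1 and Exe 5 it was 0.664 and 0.685 for these 2 genes.

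Per log2 unit of Saa1, the fitted slope was 1.25 for Saa2, 0.885 for Lcn2, 0.78 for Orm2, 0.514 for Saa3, 0.317 for Apcs, 0.246 for Hp, 0.241 for Orm1, 0.186 for Saa4 and 0.15 for Itih4. The genes that were already abundant in the lowest libraries, Hp, Orm1 and Itih4, thus had the shallow slopes, together with Saa4.

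This difference in slope showed as shifting ratios between paralogs. Saa1 was above Saa2 in 10 of 12 mice, by up to 3.52 times (Con 5), and below it in Con 1 (ratio 0.814) and Exe 5 (0.83). Orm1 was above Orm2 in 12 of 12 mice, 37.5 times in Con 5 and 2.73 times in Con 1. The ratio of Saa1 to Saa3 did not follow this order, since it was lowest in Exe 2 (10.3) and Con 4 (10.9) and highest in Con 2 (207).

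**Figure D3:**
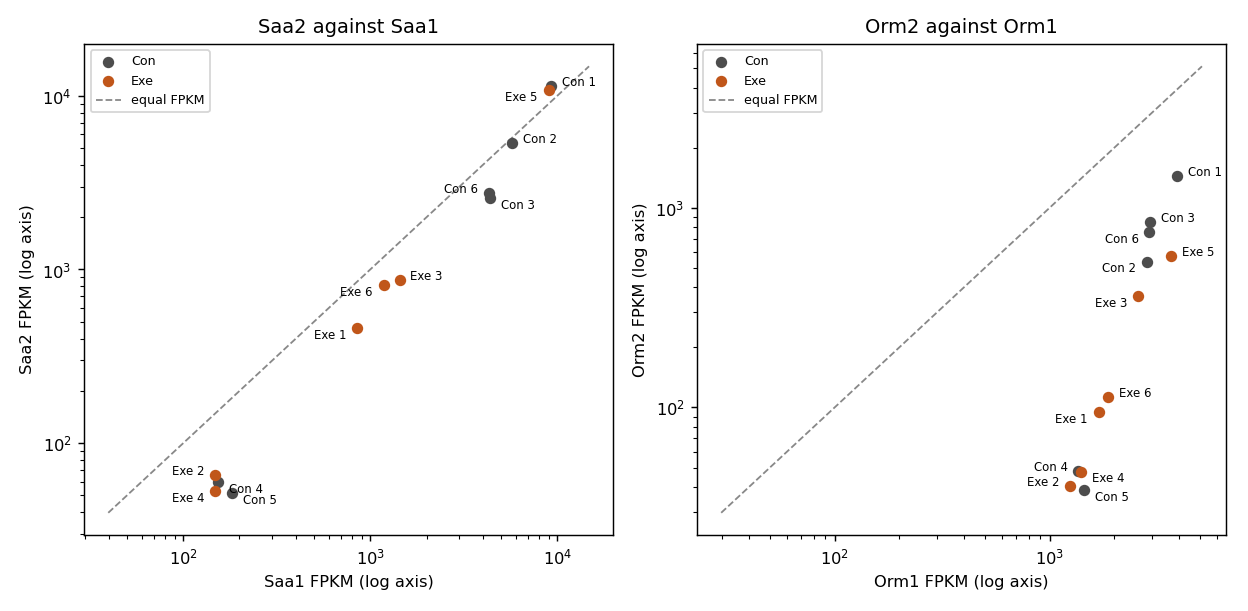
FPKM of Saa2 against Saa1 (left) and of Orm2 against Orm1 (right) in each of 12 mice, both axes logarithmic; the dashed line marks equal FPKM. Saa2 crosses the line of equal levels in Con 1 and Exe 5, and Orm2 stays below it, closest in Con 1.

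Paralogs can share reads, and how the FPKM divided such reads is not given in the sources used here. In the GENCODE M21 transcripts the longest coding transcripts of Saa1 and Saa2 were 87.3% identical and those of Orm1 and Orm2 91.0%. With reads of 150 bases, 0 windows of that length in Saa1 were found in Saa2 and 0 in Orm1 were found in Orm2. Windows of 50 bases were shared for 9.11% of Saa1 and 20.4% of Orm1. Orm3, the gene between them and 86.1% identical to Orm1, ran from 3.37 FPKM (Con 5) to 64.5 FPKM (Con 1).

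Compared with Con group, no member was called in Exe mice. All 10 members passed the filter on low values and entered the limma fit of log2(FPKM + 1) over 10241 genes. At an adjusted p of 0.05 (Benjamini-Hochberg over all genes tested) 0 members were called, and 0 of all genes were (0% of genes tested). The study itself reported differentially expressed genes between these groups with another test, DESeq, at a Q-value of 0.05 or lower and a fold change cutoff. The 0 given here holds for the limma fit of FPKM and was not compared with that list. At an unadjusted p under 0.05, 0 members passed, against 636 of all genes (6.21% of genes tested). The FPKM of the 2 groups overlapped for 10 of 10 members, while 0.254% of all genes tested had groups that did not overlap. These p-values measure the spread between mice, each measured once.

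The mean log2 value was lower in Exe than in Con mice for 10 of 10 members, with a median log2 fold change of -0.26 beside 0.02 for all genes tested, and all 10 of the 95% intervals crossed 0. With each mouse left out, this median ran from -0.76 (without Exe 5) to -0.12 (without Con 1). Since the members move together, the 10 lower means are not independent results, and the share of all genes lower in Exe mice is not given. The levels of Orm2 were 612 ± 532 FPKM in the Con group and 206 ± 217 FPKM in the Exe group (SD, n = 6). Its log2 fold change was -1.29, with a 95% interval from -3.34 to 0.77 and an adjusted p of 0.914 from limma. Saa2 stood at 3688 ± 4248 and 2182 ± 4252 FPKM, and its log2 fold change of -1.13 had an interval from -4.43 to 2.18 (adjusted p = 0.950 from limma). Saa1 stood at 4004 ± 3474 and 2126 ± 3406 FPKM, with -1.10 and an interval from -3.71 to 1.51 (adjusted p = 0.937 from limma). Leaving out 1 mouse moved Saa2 from -2.02 (without Exe 5) to -0.44 (without Con 1), Saa1 from -1.80 (without Con 4) to -0.61 (without Exe 2) and Orm2 from -1.89 (without Con 5) to -0.85 (without Con 1). Each interval of these 3 genes covers both a fall and a rise of more than 1.5-fold.

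Saa3 had the smallest p of the members, at 60.1 ± 54.7 FPKM in the Con group and 32.5 ± 50.2 FPKM in the Exe group. Its log2 fold change was -1.08, with an interval from -2.65 to 0.50 (adjusted p = 0.8997 from limma). Its Exe mean rests on Exe 5, and without that mouse the log2 fold change was -1.64 (adjusted p = 0.516 from limma), while without Con 3, the highest Con mouse, it was -0.69. The narrowest intervals were those of Itih4 (log2 fold change -0.16, from -0.61 to 0.29), Saa4 (-0.21, from -0.82 to 0.39), Orm1 (-0.31, from -0.96 to 0.34) and Hp (-0.06, from -0.78 to 0.65). Lcn2 at -0.22 (from -2.82 to 2.38) and Apcs at -0.21 (from -1.18 to 0.76) had no settled direction, since without Con 1 they stood at 0.53 and 0.06, and Hp stood at 0.10. Over the 6 members not named with one above, the adjusted p from limma lay between 0.931 and 0.987. The FPKM + 1 scale understates changes of low levels, which touches Lcn2 and Saa3 most.

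**Figure D4:**
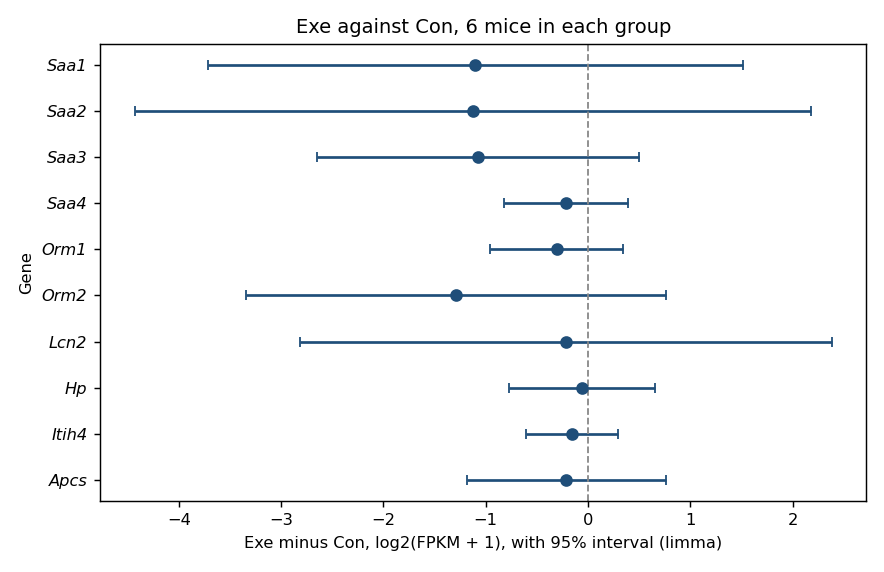
Exe minus Con difference in mean log2(FPKM + 1) for each gene, with 6 mice in each group; points are the limma estimates and bars their 95% intervals, and the dashed line is no difference. All 10 estimates lie below 0 and all 10 intervals cross it.

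A list of 25 other positive acute-phase genes, written with earlier results of these data known, gave 23 genes tested. Of these, 0 were called in either direction, 9 were higher and 14 lower in the Exe group, and their log2 fold changes had a median of -0.07. Against the index of the members, r was above 0 for 22 of 23 genes and above 0.8 for 12 of 23, with a median of 0.817, where 0.899% of the 10231 genes outside the members were above 0.8 and the median was -0.119. Hpx, which encodes the heme-binding hemopexin, had the highest r of all genes outside the members (0.974), from 2977 FPKM (Exe 2) to 8602 FPKM (Exe 5). Fgl1 (fibrinogen-like 1, r 0.955) ran from 228 FPKM (Con 4) to 1141 FPKM (Con 1), and Serpina3n (a serine protease inhibitor, r 0.954) from 146 FPKM (Con 4) to 507 FPKM (Con 1). Itih3, the neighbour of Itih4, had r 0.931.

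Other genes of the list departed from the members. Crp, the neighbour of Apcs and a pentraxin that is a weak acute-phase gene in mice, lay between 175 and 274 FPKM in all mice (r 0.359), at 209 ± 22.2 FPKM in the Con group and 239.8 ± 17.7 FPKM in the Exe group (SD, n = 6). Its log2 fold change was 0.20, with an adjusted p of 0.793 from limma. Within groups the r of Crp was higher, at 0.552 in Con and 0.908 in Exe mice, and its highest level was in Exe 5. Hamp, the gene of the iron hormone hepcidin, ranged more than Saa1 in ratio, from 25.8 FPKM (Con 4) to 1902 FPKM (Con 5), but its r was 0.325. This wide ratio rests on Con 4 alone. The next lowest mouse held 686 FPKM (Con 2), and the Exe mice ran from 733 to 1261 FPKM. Con 4 and Con 5, which were among the lowest libraries for most members, were thus at opposite ends for Hamp. Pigr, the transporter of IgA and IgM, had r -0.144.

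Of 16 negative acute-phase genes, 16 were tested and 0 were called in either direction. Their r with the index was below 0 for 13 of 16 and above 0 for 3, where 4091 of the 10231 genes outside the members were above 0. The median r was -0.53, beside -0.119 for those genes. Of the negative genes, 15 of 16 were higher in the Exe group. Their median difference was 0.08 on the log2 scale, beside 0.02 for all genes tested, and the share of all genes higher in the Exe group is not given. Rbp4, the plasma carrier of retinol (r -0.838), was lowest in Exe 5 (3091 FPKM) and highest in Exe 2 (5035 FPKM), and Apoa2, an apolipoprotein of high-density lipoprotein (r -0.826), ran from 11700 FPKM (Con 3) to 20374 FPKM (Exe 2). Igf1 had r -0.793. Trf, which encodes the iron carrier transferrin, went the other way (r 0.756), with its highest level in Exe 5 (10845 FPKM), and Hrg and Ahsg had r of 0.195 and 0.004. For Alb (r -0.543) the log2 fold change was 0.34 (adjusted p = 0.793 from limma), and for Pon1, the esterase paraoxonase 1, it was 0.26 (adjusted p = 0.756 from limma).

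**Figure D5:**
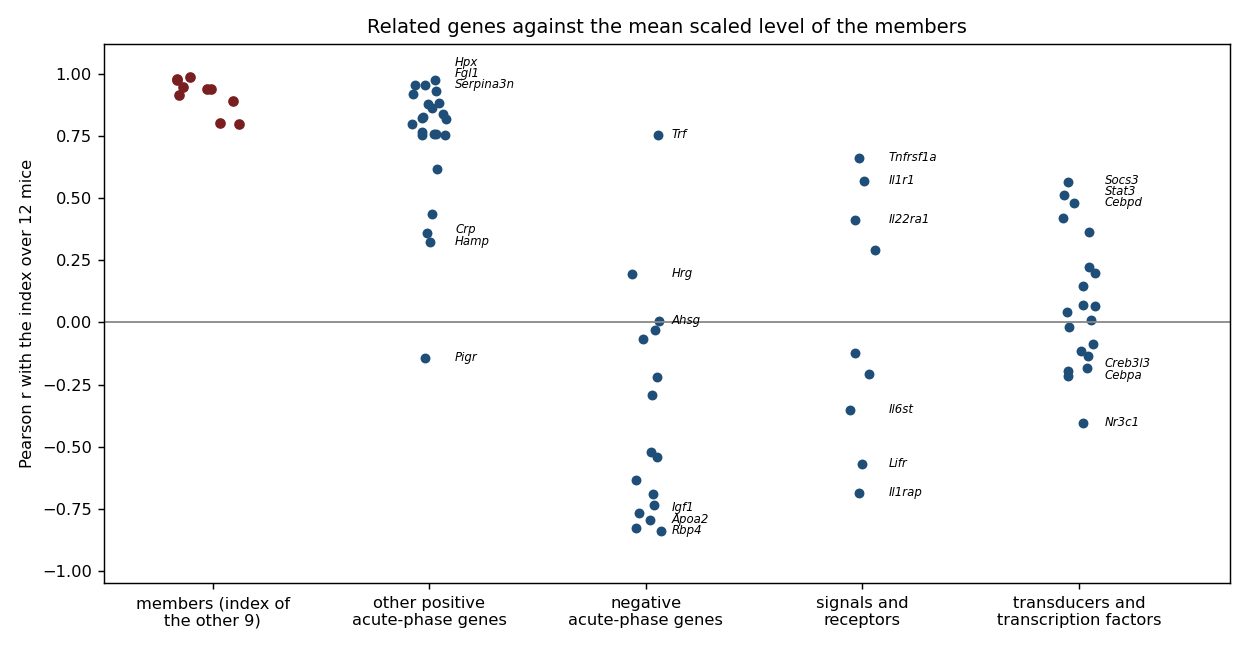
Pearson's r over 12 mice between each gene's log2(FPKM + 1) and the mean scaled level of the members (members themselves against the other 9 genes); points are genes tested, and the 3 highest and 3 lowest of each list are named. The positive acute-phase genes sit mostly above 0.75, the negative ones mostly below 0, and the transducers and transcription factors spread around 0.

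The genes that carry the signal followed the members less closely. Of 15 signals and receptors, 9 were tested and 0 called in either direction. Il6, Tnf, Osm, Lif, Il11 and Osmr lay below the filter, with Il6 at 0.14 FPKM or less in every mouse. The highest r was 0.663, for the tumor necrosis factor receptor Tnfrsf1a, then 0.569 for the interleukin 1 receptor Il1r1, and the lowest were -0.57 for Lifr and -0.688 for Il1rap, the accessory chain of the interleukin 1 receptor. Il6st, the shared receptor chain gp130, was 0.24 higher in the Exe group on the log2 scale (adjusted p = 0.657, limma), and Il1b, the gene of interleukin 1 beta, had a log2 fold change of -0.48 (adjusted p = 0.813, limma).

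Of 20 transducers and transcription factors, 20 were tested and 0 called in either direction, with a median r of 0.05. Socs3, the feedback inhibitor that STAT3 induces, had the highest r (0.566), from 2.52 FPKM (Exe 2) to 13.3 FPKM (Con 1), followed by Stat3 (0.511) and Cebpd (0.48). At the other end were Nr3c1, the glucocorticoid receptor (-0.405), Cebpa (-0.214) and Creb3l3 (-0.197). Without Con 1 and Exe 5, r was 0.267 for Socs3, 0.400 for Stat3 and 0.414 for Cebpd. The r of Cebpd was 0.787 in the Con group and -0.629 in the Exe group, and this difference was not tested. Socs3 had a log2 fold change of -0.55 and Junb, an immediate early gene, one of -0.63, with the same adjusted p of 0.793 (limma) for both.

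Over all genes outside the members, the 10 with the highest r with the index were Hpx, Fgl1, Serpina3n, Itih3 and C4b (0.920), which are on the list of positive genes, and Tmem176a (0.963), Cyp4f16 (0.957), Prtn3 (0.933), C4bp (0.930) and Ston2 (0.923), which are not. Prtn3, which encodes proteinase 3, a serine protease of neutrophil granules, had the widest range, from 0.74 FPKM (Exe 2) to 26.4 FPKM (Con 1). Of the neutrophil markers, Elane and Mpo held 0.18 and 0 FPKM in Con 1 and were highest in Exe 3 (0.96 and 0.68 FPKM). In Exe 5, with 21.75 FPKM of Prtn3, Elane and Mpo held 0.69 and 0.05 FPKM. S100a8 and S100a9 held 21.0 and 10.7 FPKM in Con 1 and 30.4 and 17.3 FPKM in Exe 5. The 3 neutrophil markers tested, S100a8, S100a9 and Csf3r, had r of 0.637, 0.763 and 0.739 with the index. Whether Prtn3 came from neutrophils was not tested. Among the lowest r were those of Sod1, the cytosolic superoxide dismutase (-0.913), Bckdha, a subunit of the branched-chain ketoacid dehydrogenase (-0.904), Acaa2, a thiolase of mitochondrial beta-oxidation (-0.8995), and Arhgap6 (-0.8995). Sod1 moved within a narrow range, between 1409 FPKM (Exe 5) and 1825 FPKM (Con 4).

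Markers of other cell types moved with the index to different degrees, and their part in the results was not tested. Of 13 neutrophil markers, 3 were tested (S100a8, S100a9 and Csf3r). Their list summed to 14.5 to 36.9 FPKM in Con and 10.9 to 57.7 FPKM in Exe mice (r 0.738), highest in Exe 3 and then in Exe 5 (54.6 FPKM), while Ly6g, Mpo, Elane, Camp, Ltf and Mmp8 were at 0 in at least 1 mouse. Of 12 macrophage and Kupffer cell markers, 12 were tested, all with r above 0 (median 0.625). The list summed to 364 to 675 FPKM in Con and 274 to 609 FPKM in Exe mice, highest in Con 2. The r of this sum was 0.429 in the Con group and 0.859 in the Exe group. All 7 stellate cell markers had r above 0, from 0.174 (Des) to 0.785 (Col1a1). Their sums were 47.7 to 91.9 FPKM in Con and 48.3 to 90.8 FPKM in Exe mice (r 0.523). Without Con 1 and Exe 5 the r of this sum was 0.341, and that of Des was -0.170.

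Sums of other lists had a lower or negative r with the index. The 7 sinusoidal endothelial markers summed to 62.1 to 105 FPKM in Con and 75.1 to 91.0 FPKM in Exe mice (r -0.757), and the 12 hepatocyte markers to 61491 to 80604 FPKM and 71139 to 87399 FPKM (r -0.709). Of the hepatocyte markers, Alb, Apoa1 and Ttr are also on the list of negative acute-phase genes and made up 76.2% to 84.1% of the sum. The other 9 had r -0.70. Of 3 lists of blood cells, the r had opposite signs in the groups, over 6 mice each, and this difference was not tested. The 6 red blood cell markers summed to 235 to 903 FPKM in Con and 400.3 to 1290.3 FPKM in Exe mice, with r -0.809 in the Con group and 0.965 in the Exe group (-0.194 over all mice). The 6 B and plasma cell markers summed to 3.19 to 5.83 FPKM and 5.34 to 8.61 FPKM, with r -0.839 and 0.848 in the groups (-0.256 over all mice). The 8 T cell markers, none of which passed the filter, summed to 1.84 to 4.11 FPKM and 2.78 to 5.28 FPKM, with r -0.584 and 0.874 (0.00518 over all mice). All 3 sums were highest in Exe 5. Of 6 adipocyte markers, Fabp4 alone was tested, the defining Adipoq and Plin1 did not exceed 0.06 FPKM, and the list summed to 10.4 to 19.7 FPKM and 12.1 to 22.1 FPKM (r -0.42).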

How the data were processed

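RNA from 12 livers, 6 Con and 6 Exe, was sequenced as paired reads of 150 bases, with a library for each mouse. According to the study's methods, the authors filtered the reads for quality and used HISAT for alignment to GRCm39. Per the file headers, the values the authors deposited are FPKM, given with 2 decimals. The submitters' processing notes also name Bowtie2 and mm10, with no role. The tool and annotation behind the FPKM are not given in the sources used here. No read counts were used, so an error from counting cannot be stated.

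The 10 members and all gene lists were chosen with earlier results of these data known. A gene was tested where 6 or more of the 12 mice held 1 FPKM or more. These genes were fitted as log2(FPKM + 1) in R 4.3.3 with limma 3.58.1 (group as the only term, variances moderated with a trend), adjusted by Benjamini-Hochberg over all genes tested. The fit was tested on simulated data. Descriptions and sequences were computed in Python 3.11.15 with Biopython 1.88, pandas 2.3.3, numpy 2.4.6, matplotlib 3.10.9 and scipy 1.17.1. Of each list, the 3 genes with the highest and the 3 with the lowest r with the index and the 2 with the largest absolute log2 fold change were named, and of all other genes the 10 with the highest and the 5 with the lowest r. One gene that this rule names is not reported here. Orm3, Mt2, Moxd1, Mt1, Cyp4a14 and the single markers named were named after their values were seen. Promoters and gene order came from RefSeq tables of GRCm38.p6, in which the gene IDs of all 10 members were found.

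The alternatives were a TPM scale, quantile normalization, a pseudocount of 0.1, no filter, a filter at 1 FPKM in all 12 mice, robust moderation, the replicate number as a block and each mouse left out in turn. Leaving out Con 1 and Exe 5 together was added after seeing the data.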

Additional observations from a re-analysis of the deposited data

Results flagged for a closer look

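In each group of 6 mice, the gap of the highest or lowest mouse to its neighbour was divided by the range of the group (Dixon's ratio, critical value 0.625 at 95%) for 126 sets of values, and 19 passed. Chance flags about 1 in 20 independent groups, but this count cannot be set against that rate, since the spread of the members chose them and other genes were named for their r with them. The values are a description, given with no explanation. Dixon's ratio was taken on FPKM or on ratios of FPKM, and not on the log2 scale used for the fit. High values stand further apart on the FPKM scale, and whether the flags hold on the log2 scale was not tested. Exe 5 lay above the other Exe mice in Saa1 (0.854), Saa2 (0.924), Saa3 (0.955), Lcn2 (0.859), Hp (0.648) and Apcs (0.694) and in the summed FPKM of the members (0.798). It was also apart in Serpina3n (0.687), Crp (0.705), Prtn3 (0.846) and C4bp (0.707), in the summed B and plasma cell (0.657) and T cell markers (0.656), and, as the lowest Exe mouse, in Bckdha (0.668). Con 1 lay above the other Con mice in Lcn2 (0.680), Apcs (0.669) and Socs3 (0.649) and in the summed neutrophil markers (0.631). Con 5 lay below the other Con mice in the summed stellate cell markers (0.671).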

How the results depend on the processing

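Of 672 values under alternatives, 656 stayed on the same side with the same sign or close in size, 10 changed sign and 6 moved. No member was called under any of the 20 alternatives. Without the filter on low values 1 of all genes was called, D630003M21Rik (log2 fold change -0.22, adjusted p = 0.0476 from limma, named after its value was seen). At an unadjusted p under 0.05, 437 genes were higher and 199 lower in Exe mice (68.7% higher), under quantile normalization 56.4% of 617 and on the TPM scale 87.4% of 794. With a mouse left out this count ran from 418 (without Exe 2) to 910 (without Exe 5). One member, Saa3, passed an unadjusted p of 0.05 without Exe 5 and without both Con 1 and Exe 5. The log2 fold change of Hp was 0.14 under quantile normalization. With each mouse left out, it ran from -0.28 to 0.10 for Hp, from -0.96 to 0.53 for Lcn2 and from -0.55 to 0.063 for Apcs, each highest without Con 1 and lowest without Exe 5, and the cause was not tested. The median of the other positive acute-phase genes went from -0.19 (without Exe 5) to 0.07 (without Con 1). Without both mice, the SD of Lcn2 was 1.71 and that of Apcs 0.544. With the replicate number as a block, 0 genes were called and 567 passed an unadjusted p of 0.05. No clear pairing by number was seen. The r of same-numbered mice lay between -0.478 and 0.165 with 1 of 6 over 0.1, and 2 of 12 mice correlated best with their own number. Such r cannot show whether mice shared a cage, day or batch. With 6 mice per group and this spread, only differences as large as the intervals could have been seen, and the depth in reads sets no known limit.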

Other observations

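The metallothioneins Mt1 and Mt2, zinc-binding proteins that are induced with the acute phase, were highest in Con 2, and not in Con 1 or Exe 5 as most members were. Mt1 ran from 23.0 FPKM (Con 4) to 812 FPKM (Con 2) and Mt2 from 3.23 FPKM (Con 4) to 326 FPKM (Con 2), with r of 0.825 and 0.817 with the index of the members over 12 mice. The log2 fold changes were -0.33 (adjusted p = 0.969 from limma) and -0.21 (adjusted p = 0.986). Both were picked once their values were known.

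The fibrinogen genes, which encode the chains of the clotting protein, moved together over a narrower range. Fga ran from 1439 to 3881 FPKM (r 0.759), Fgb from 2575 to 5912 FPKM (r 0.822) and Fgg from 2082 to 4571 FPKM (r 0.798), each lowest in Exe 6 and highest in Exe 5. Serpina6, the gene of the corticosteroid carrier, ran from 70.7 FPKM (Exe 5) to 195 FPKM (Exe 2), with r -0.635. These 4 were also picked once their values were known, and 0 of them were called by limma.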
